A study of Mus musculus with 10 samples.

Results

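The genes that copy the genome in S phase were examined at the chromatin level during GATA1-driven erythroid maturation. The group held 42 members of the 21938 protein-coding genes of GENCODE M21 on chromosomes 1 to 19, X and Y, chosen by name for their role in DNA replication. A promoter peak was a peak summit within 1 kb of any annotated transcript start of a member. A distal peak was a summit farther than that from every start of a protein-coding gene but within 50 kb of the span of a member. Starts of other genes were not used, so a distal peak may lie at one of them. All positions are on mm10, the mouse genome build of the deposited lists.

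G1E-ER4 cells are a clonal subline of mouse Gata1-null erythroid cells (G1E) that constitutively express GATA1 fused to the ligand-binding domain of the estrogen receptor, so that β-estradiol releases GATA1 activity, and they stand for maturation in 1 cell line. Open chromatin was mapped with ATAC-seq, a method that cuts and tags accessible DNA with Tn5 transposase, in about 50000 cells per library. The groups were untreated cells (0 h) and cells kept in β-estradiol at 1e-07 M for 2, 6, 12 or 24 h, all of the same genotype and all grown in IMDM with serum, SCF and EPO. Each group had 2 libraries. The study describes its ATAC-seq replicates as independent experiments, and the labels give only their replicate numbers.

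A replication origin is marked by the origin recognition complex (ORC), which with CDC6 and CDT1 loads the MCM helicase on DNA. The kinases CDC7 with DBF4 and CDK2 with its cyclins then bring CDC45 and the GINS complex to the helicase, after which the polymerases, the PCNA sliding clamp and its loader RFC copy the strands from nucleotides that ribonucleotide reductase and thymidylate synthase help to make. Many of these genes are textbook targets of E2F transcription factors, which act at G1/S. Erythroid precursors divide several times while they mature and leave the cell cycle late.

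The lists held 10698 to 19859 peaks per library, with a median score of 5.68 to 7.68, the score being −log10 of the q-value that the peak caller gave each peak in its own library. Read totals are not given, so the depth of the libraries is unknown, and where no peak is listed a promoter may still be open. Of 10 erythroid genes used to check the labelled cell type, Nfe2, Zfpm1, Epor and Lyl1 had a promoter peak in 10 libraries, Kit in 9, Lmo2 in 7, Gfi1b and Klf1 in 4 and Tal1 in 2, whereas Gata2 had none. Of 10 genes of other cell types, 9 had no promoter peak in any library and Col1a1 had one in 8.

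All 42 members had a promoter peak in at least 1 library, and 35 of them (83.3%) had one in all 10 libraries. Among all protein-coding genes, 5905 (26.9%) had a promoter peak in all 10 libraries and 10011 (45.6%) in at least 1, so that 59.0% of genes with any promoter peak had it in every library. The number of members with a peak was 42 and 39 in the 0 h libraries (replicates 1 and 2), 42 and 42 after 2 h, 40 and 42 after 6 h, 39 and 40 after 12 h and 41 and 41 after 24 h. Leaving out any library gave 35 to 37 members with a peak in all that were left.

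To compare a promoter between libraries of unequal scores, its highest score was turned into a percentile, its place among the 5905 promoters that had a peak in all 10 libraries, from 0 for the lowest to 100 for the highest. On this scale the 35 members open throughout were ordinary promoters. Their mean percentile over the libraries had a median of 46.1, beside 46.9 for all 5905, and the SD of a member over the 10 libraries had a median of 17.5 points, beside 17.3. The members themselves differed widely, from 14.4 to 98.5.

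**Figure D1:**
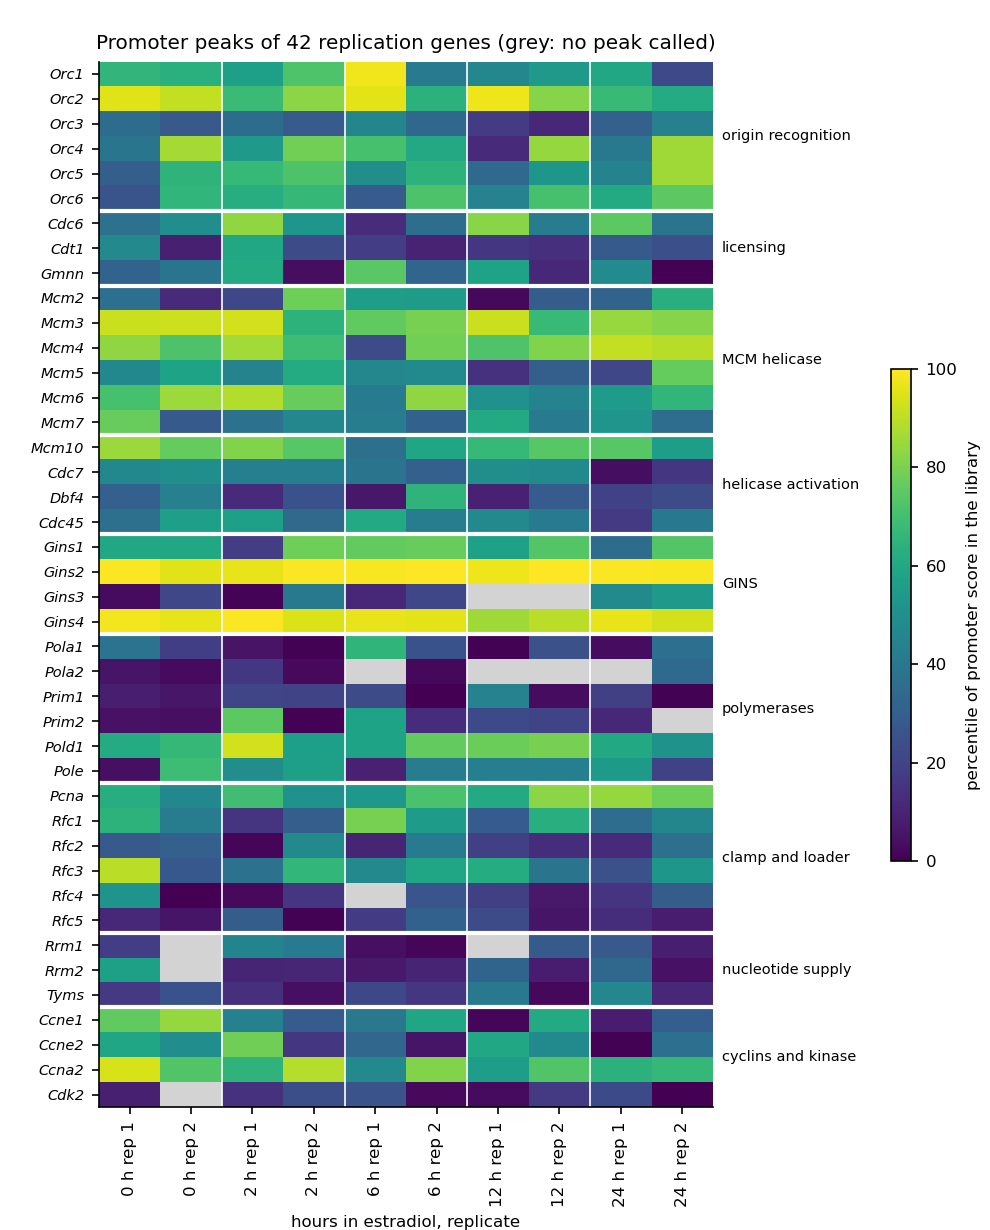
Percentile of the promoter score (colour, 0 to 100) of each of the 42 members (rows, grouped by role) in each of the 10 libraries (columns), with grey where no peak was called. The Gins2 and Gins4 rows stay bright in every library, from 95.5 to 99.8 and from 85.8 to 99.4, and the grey cells fall on 7 members.

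Origin recognition and licensing came first in the order of the pathway. The 6 ORC genes had a median of the mean percentile of 57.6, from 30.9 for Orc3 to 80.6 for Orc2. Orc1, Orc4, Orc5 and Orc6 lay between 56.6 and 61.2. The peaks of Orc1, Orc3, Orc4 and Orc6 also lay near the start of another gene, as given below. The 3 licensing genes lay lower, with a median of 36.1. Cdt1, which delivers the helicase to ORC, had a mean percentile of 24.9 ± 16.6 (SD over 10 libraries), Gmnn, which encodes the CDT1 inhibitor geminin, 36.1 ± 25.1 and Cdc6 50.9 ± 22.9. The spread of Gmnn ran from 0.72 in 24 h replicate 2 to 74.4 in 6 h replicate 1, and its 24 h libraries, at 48.3 and 0.72, enclosed both 0 h libraries, at 31.8 and 38.9.

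The 6 genes of the MCM2-7 helicase ring had a median of the mean percentile of 55.7, with Mcm4 at 74.6, Mcm6 at 66.2, Mcm7 at 45.2 and Mcm5 at 44.7. Mcm3 was among the 3 highest members, with 92.0 and 92.6 before treatment, 93.0 and 64.8 after 2 h, 75.4 and 79.4 after 6 h, 92.1 and 67.9 after 12 h and 84.7 and 81.8 after 24 h. Its 6 h and 24 h libraries lay below both 0 h libraries, whereas its 2 h and 12 h pairs reached into or across the 0 h values. Mcm2 was the lowest of the ring (mean 38.6 ± 24.0, SD over 10 libraries), from 2.29 in 12 h replicate 1 to 78.1 in 2 h replicate 2, beside 36.4 and 11.9 at 0 h.

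E2F words stood in 4 of the 5 MCM promoters for which a sequence was at hand, and their stretches show what many members shared in sequence. RefSeq promoters (GRCm38.p6, from 250 bases before to 50 after the start) were at hand for 32 of the 42 members, and Mcm4, Gmnn, Gins1, Gins2, Gins4, Rfc2, Prim2, Pole, Ccne2 and Ccna2 were not among them. The words TTTCCCGC, TTTCGCGC, TTTGCCGC and TTTGGCGC were searched as E2F motifs on both strands, and neighbouring words may overlap. These are given as 80-base stretches of Mcm3 (chr1:20820263-20820342, minus strand), Mcm5 (chr8:75109322-75109401, plus strand), Mcm6 (chr1:128359741-128359820, minus strand) and Mcm7 (chr5:138172005-138172084, minus strand), which were chosen after the counts were seen, with E2F words and the CCAAT box (CCAAT or its reverse complement ATTGG) in capitals.
Mcm3: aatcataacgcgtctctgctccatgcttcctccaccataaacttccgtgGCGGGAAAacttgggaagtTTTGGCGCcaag
Mcm5: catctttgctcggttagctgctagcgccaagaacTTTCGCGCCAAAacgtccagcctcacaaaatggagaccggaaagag
Mcm6: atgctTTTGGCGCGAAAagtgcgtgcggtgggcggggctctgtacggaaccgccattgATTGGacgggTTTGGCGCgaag
Mcm7: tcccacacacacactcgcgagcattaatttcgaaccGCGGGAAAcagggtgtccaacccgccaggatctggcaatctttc
The Mcm3 stretch held 2 E2F words and the Mcm5 stretch 2 that overlap, the first beginning at position -153 relative to the start. In Mcm6 there were 3, of which 2 overlap, and a CCAAT box stood before the third. The Mcm7 stretch held 1 of the 2 E2F words of its promoter.

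Across the matched members, an E2F word stood in 13 of 32 promoters (40.6%). Among 16522 protein-coding promoters of the same length the share was 2.95%, and among the 4805 with a promoter peak in all 10 libraries it was 5.43%. Besides the MCM genes the holders were Cdc6, Cdk2, Cdt1, Gins3, Orc1, Orc3, Pola1, Pold1 and Rfc3. The CCAAT box stood in 59.4% of member promoters, beside 38.7% of all and 47.2% of those open throughout, and the GC box (GGGCGG) in 78.1%, beside 49.0% and 74.2%. The CHR words of late cell cycle genes (either TTTGAA or its common variant TTCGAA) stood in 21.9%, beside 17.0% and 13.5%, and GATA words (either AGATAA or the variant TGATAA) in 6.25%, that is in Cdc45 and Orc2, beside 15.6% and 7.80%. The median GC content was 63.2% in the members, 57.3% in all promoters and 62.3% in those open throughout. Word matches describe the sequence only, and binding was not measured here.

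**Figure D2:**
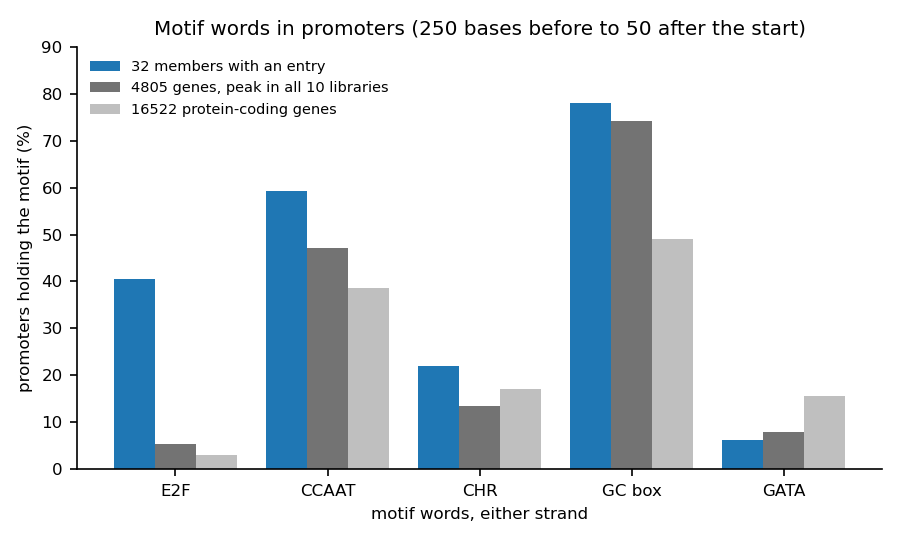
Share of promoters (%, y axis from 0) that hold at least 1 word of each motif (x axis), for the 32 members with a promoter sequence, the 4805 genes with a peak in all 10 libraries and all 16522 protein-coding genes. The E2F bars stand at 40.6%, 5.43% and 2.95%, and the GATA bar of the members is the lowest of its group at 6.25%.

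Summits of the members lay close to the start. Their median position relative to the nearest start was -38 bp, where negative is upstream, and 33 of 42 (78.6%) lay within 100 bp, beside -41.5 bp and 65.3% for the promoters open throughout. Over the 10 libraries the summit of a member moved within a range of 207 bp (median of 35 members), beside 247 bp. In 11 members (26.2%, beside 29.8%) the same summit also lay within 1 kb of a start of another protein-coding gene, named here in brackets. These were Mcm4 (Prkdc), Mcm7 (Ap4m1), Orc1 (Prpf38a), Orc3 (Rars2), Orc4 (Mbd5), Orc6 (Vps35), Dbf4 (Slc25a40), Cdc45 (Ufd1), Gins1 (Abhd12), Pole (Pxmp2) and Cdk2 (Pmel). The peak cannot be assigned to either gene of such a pair. The starts of Orc6 and Vps35 were 11 bp apart.

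Of the genes that activate the helicase, Mcm10 had the highest mean percentile at 68.3 ± 14.3 (SD over 10 libraries), followed by Cdc45 at 43.3 ± 12.9, Cdc7 at 36.9 ± 15.6 and Dbf4, the activating subunit of the CDC7 kinase, at 26.4 ± 17.6. The GINS genes spanned nearly the whole scale although their products form 1 complex. Gins2 held the top of the list, with 99.3 and 95.5 before treatment, 96.9 and 99.4 after 2 h, 99.0 and 99.8 after 6 h, 97.4 and 99.8 after 12 h and 99.4 and 99.1 after 24 h, so every library placed it among the highest promoters. Gins4 followed at 98.1 and 96.4 before treatment, 99.4 and 94.6 after 2 h, 96.8 and 96.1 after 6 h, 85.8 and 89.8 after 12 h and 96.6 and 93.1 after 24 h, with both 12 h libraries below all others. Gins1 had a mean of 60.8 ± 19.9 (SD over 10 libraries) and Gins3 one of 24.9 ± 20.1 over the 8 libraries with a peak.

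The polymerase genes were low as a group, with a median of the mean percentile of 22.6, beside 19.7 for Rrm1, Rrm2 and Tyms. Pold1, the catalytic subunit of the lagging-strand polymerase δ, stood apart from the other polymerase genes at 68.1 ± 13.0 (SD over 10 libraries), and Pole, that of the leading-strand polymerase ε, had 39.1 ± 21.3. Prim1, the catalytic primase subunit, was among the 3 lowest members open throughout, with 8.55 and 6.03 before treatment, 21.1 and 20.4 after 2 h, 22.7 and 0.0254 after 6 h, 44.3 and 3.31 after 12 h and 19 and 0.584 after 24 h. Both 2 h libraries lay above both 0 h libraries, whereas the later pairs enclosed the 0 h values.

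In the clamp and its loader, Pcna had a mean percentile of 66 ± 13.2 (SD over 10 libraries), with 62.3 and 46.7 before treatment and 84.0 and 77.9 at 24 h. The loader subunit Rfc5 was the lowest member open throughout (mean 14.4). Its percentiles were 11.0 and 5.56 before treatment, 29.3 and 0.50 after 2 h, 17.4 and 31.0 after 6 h, 23.4 and 5.53 after 12 h and 13.0 and 7.79 after 24 h, and only the 6 h pair lay above both 0 h libraries. The other loader subunits open throughout, Rfc1, Rfc2 and Rfc3, had means of 46.1, 24.1 and 50.5. Tyms, thymidylate synthase, was the third lowest, with 16.6 and 25 before treatment, 14.1 and 4.17 after 2 h, 21.6 and 15.7 after 6 h, 40.4 and 1.96 after 12 h and 46.2 and 11.2 after 24 h. Its 24 h pair enclosed the 0 h pair, so no direction can be read there.

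A peak was missing in some libraries for 7 members, and all 7 had a mean percentile of at most 24.9 where a peak was called. Rfc4, a clamp loader subunit, lacked one in 6 h replicate 1 and had scores of 2.42 to 14.3 in the other 9 libraries. Prim2, the large primase subunit, lacked one in 24 h replicate 2, with scores of 3.32 to 13.5 elsewhere. Rrm2, the small subunit of ribonucleotide reductase, had none in 0 h replicate 2, with scores of 4.24 to 11.2 in the others, and its partner Rrm1 had none in 0 h replicate 2 and 12 h replicate 1, with 3.88 to 11.0 elsewhere. Cdk2, the S phase kinase, lacked a peak in 0 h replicate 2 and scored 1.99 to 8.41 in the others. In none of these 5 genes did both libraries of a time point lack the peak.

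Gins3 and Pola2 were the members whose promoter peak was lost in both libraries of a time point, and 12 h was that time point for both. A promoter was counted as lost when both 0 h libraries had a peak and neither later library did, and as gained in the opposite case. Scores of Gins3 (ENSMUSG00000031669.10) were 4.37 and 6.47 before treatment, 3.40 and 10.8 after 2 h, 5.0 and 13.4 after 6 h, no peak after 12 h and 8.79 and 11.3 after 24 h, so the peak was back in both 24 h libraries. On the percentile scale these stood at 47.4 and 53.5, above the 0 h libraries at 2.97 and 21.3. Scores of Pola2 (ENSMUSG00000024833.15), the regulatory subunit of the polymerase α-primase, were 4.94 and 3.74 before treatment, 6.27 and 4.31 after 2 h, none and 7.41 after 6 h, no peak after 12 h, and none and 8.41 after 24 h. Every replicate 1 list from 6 h on lacked the Pola2 peak.

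The RefSeq promoters of both genes are given because no peak was called there at 12 h, with E2F and CCAAT words in capitals (Gins3 chr8:95633309-95633608, plus strand, and Pola2 chr19:5964157-5964456, minus strand).
Gins3: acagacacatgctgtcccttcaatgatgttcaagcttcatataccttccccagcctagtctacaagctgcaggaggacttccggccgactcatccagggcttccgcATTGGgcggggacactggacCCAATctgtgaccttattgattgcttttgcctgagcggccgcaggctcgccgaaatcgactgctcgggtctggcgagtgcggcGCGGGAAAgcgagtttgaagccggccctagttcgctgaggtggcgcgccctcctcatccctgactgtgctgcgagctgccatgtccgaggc
Pola2: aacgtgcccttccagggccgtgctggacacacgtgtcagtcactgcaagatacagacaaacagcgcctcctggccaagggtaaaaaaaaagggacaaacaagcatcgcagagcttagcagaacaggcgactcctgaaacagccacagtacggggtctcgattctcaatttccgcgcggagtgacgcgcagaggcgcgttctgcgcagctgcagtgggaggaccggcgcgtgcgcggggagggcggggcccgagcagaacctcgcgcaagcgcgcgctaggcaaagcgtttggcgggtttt
The Gins3 run held 1 E2F word, beginning at position -41, and 2 CCAAT boxes, and its strongest summit lay at base 133 of the run. The Pola2 run held neither, and its strongest summit lay at base 160.

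Over all genes, 0.724% of the 9536 promoters listed in the 12 h comparison were lost and 1.77% gained, beside 2 lost and none gained of the 42 members. Of the 7408 promoters with a peak in both 0 h libraries, 0.931% were lost at 12 h, and 39 members were among those at risk. At 2 h the shares of all genes were 0.833% lost and 1.54% gained, at 6 h 0.103% and 2.5%, and at 24 h 1.31% and 1.09%, and no member was lost or gained at these times. Of promoters in both 0 h libraries, 1.07% were lost after 2 h, 0.135% after 6 h and 1.67% after 24 h. No gain could be called for a member, since 0 h replicate 1 had a peak at all 42. With 2 libraries against 2 the smallest exact permutation p is 0.333, so gains and losses are counted here with no test. With every list reduced to the size of the smallest, Gins3 was no longer lost at 12 h, Pola2 was, and Pola1 was lost at 2 h. With promoters taken within 500 bp, 3 members were lost at 12 h, Gins3, Pola2 and Prim2, and within 2 kb only Gins3.

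Whether the members changed rank with time was asked with limma on the percentiles of all 5905 promoters. None of the 5905 promoters had an adjusted p under 0.05 (Benjamini-Hochberg) at 2, 6, 12 or 24 h or in the F-test over all times (0% in each), and hence no member did. At an unadjusted p under 0.05 there were 158, 127, 145 and 172 promoters at 2, 6, 12 and 24 h, with 0, 0, 2 and 2 members among them. With the replicate numbers as a block they were 285, 270, 297 and 338, with 1, 1, 2 and 3 members. Leaving out 1 library at a time gave 88 to 231 promoters after 2 h, 70 to 260 after 6 h, 96 to 324 after 12 h and 134 to 362 after 24 h, the lowest and the highest each without a library of that time (the lowest without its replicate 1 and the highest without its replicate 2). The members among them then numbered 0 to 1, 0 to 2, 0 to 3 and 0 to 2. The median difference of the 35 members from 0 h was -0.27 points after 2 h, -1.28 after 6 h, -4.16 after 12 h and -5.56 after 24 h, while the median of all promoters stayed between -0.14 and 0.10. Members lower than at 0 h numbered 20, 19, 24 and 22 of 35 (57.1%, 54.3%, 68.6% and 62.9%). Over all promoters the shares lower were 49.8%, 49.5%, 50.3% and 50.4%. The 4 comparisons share the 0 h libraries, so they are not independent.

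Replicate by replicate the lean was uneven. At 24 h the median member difference was -7.29 points within replicate 1, with 23 of 35 members lower, and -3.27 within replicate 2, with 19 lower. At 12 h it was -9.00 with 21 lower within replicate 1 and -2.46 with 23 lower within replicate 2. At 2 h the replicates differed in sign, with 0.21 and -2.25. Over all promoters 50.1% and 49.7% were lower at 24 h within replicates 1 and 2, and 49.7% and 51.0% at 12 h.

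Counted by groups that did not overlap, both 24 h libraries lay below both 0 h libraries in 11 of 35 members (31.4%), beside 13.8% of all 5905 promoters, and above in 2 (5.71%), beside 14.7%. The 11 were Mcm3, Mcm6, Mcm10, Orc1, Orc2, Dbf4, Cdc7, Pold1, Ccna2, Ccne1 and Ccne2, and Pcna and Mcm4 were higher. At 12 h 10 members (28.6%) lay below, beside 14%, and 1 above (2.86%, Pold1), beside 14.2%. At 6 h 6 members (17.1%) lay below, beside 14.4%, and 3 (8.57%) above, beside 13.9%, and at 2 h 7 (20%) below, beside 15%, and 3 above, beside 14.1%. These counts describe the members and carry no test, and the 12 h and 24 h counts share the 0 h libraries.

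**Figure D3:**
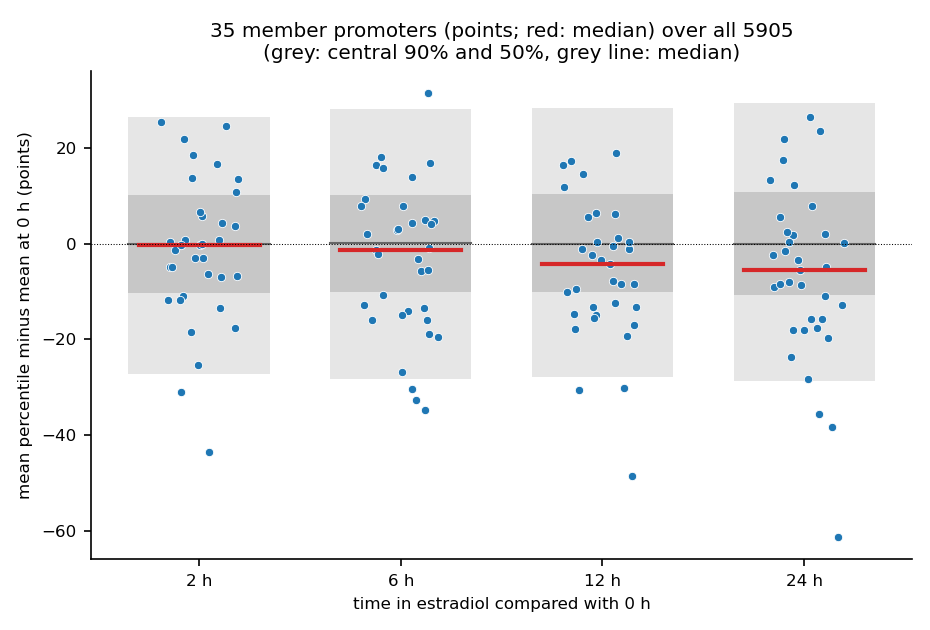
Difference of the mean percentile from 0 h (y axis, points) at each later time (x axis) for the 35 members with a peak in all 10 libraries (blue points, red line at their median), over the central 90% and 50% of all 5905 promoters (grey bands, grey line at the median). The red line sits at -0.27, -1.28, -4.16 and -5.56 points and the lowest point at 24 h is Ccne1 at -61.32.

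Ccne1, which encodes the G1/S cyclin E1, had the lowest F-test p of the members (limma, adjusted p = 1.0). Its percentiles were 75.7 and 84.1 before treatment, 43.9 and 29.0 after 2 h, 39.9 and 59.3 after 6 h, 1.35 and 61.2 after 12 h and 7.5 and 29.7 after 24 h. All 8 treated libraries lay below both 0 h libraries, and the 12 h pair was widely spread. The difference at 24 h was -61.32 points (SE 22.9, limma adjusted p = 0.9998). The other cyclins differed by -35.52 points (SE 22.7) for Ccne2 and -18.01 (SE 16.7) for Ccna2 at 24 h, and both had both 24 h libraries below both 0 h libraries.

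Orc2, a core subunit of the origin recognition complex, came next. Its percentiles were 95.1 and 90.8 before treatment, 68.4 and 82.5 after 2 h, 95.9 and 64.3 after 6 h, 97.6 and 81.7 after 12 h and 67.7 and 61.6 after 24 h. The 2 h and 24 h pairs lay below both 0 h libraries, and the 6 h and 12 h pairs reached above them. At 24 h it differed by -28.32 points (SE 11.3, limma adjusted p = 0.9998).

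Pola1, the catalytic subunit of polymerase α, was lowest at 2 h. The values were 38.2 and 18.5 before treatment, 5.33 and 0.618 after 2 h, 65.3 and 25.3 after 6 h, 0.652 and 24.9 after 12 h and 3.43 and 36.4 after 24 h, so apart from 2 h every pair overlapped the 0 h pair. The difference at 2 h was -25.40 points (SE 16.9, limma adjusted p = 1.0).

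The promoters of these 3 genes are given because these members had the lowest F-test p, as Ccne1 (chr7:38107441-38107740), Orc2 (chr1:58505060-58505359) and Pola1 (chrX:93632106-93632405), all on the minus strand and with E2F and CCAAT words in capitals.
Ccne1: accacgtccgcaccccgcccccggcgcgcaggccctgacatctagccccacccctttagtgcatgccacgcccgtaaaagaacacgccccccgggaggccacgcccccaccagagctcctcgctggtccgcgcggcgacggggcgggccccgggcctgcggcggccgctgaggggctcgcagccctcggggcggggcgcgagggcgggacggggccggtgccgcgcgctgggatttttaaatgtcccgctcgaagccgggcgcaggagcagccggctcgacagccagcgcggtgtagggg
Orc2: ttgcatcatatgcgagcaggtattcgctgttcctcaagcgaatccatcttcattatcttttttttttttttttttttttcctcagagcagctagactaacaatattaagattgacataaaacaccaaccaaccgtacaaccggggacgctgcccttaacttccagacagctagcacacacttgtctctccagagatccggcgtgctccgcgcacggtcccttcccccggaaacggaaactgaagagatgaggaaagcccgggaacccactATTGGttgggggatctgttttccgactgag
Pola1: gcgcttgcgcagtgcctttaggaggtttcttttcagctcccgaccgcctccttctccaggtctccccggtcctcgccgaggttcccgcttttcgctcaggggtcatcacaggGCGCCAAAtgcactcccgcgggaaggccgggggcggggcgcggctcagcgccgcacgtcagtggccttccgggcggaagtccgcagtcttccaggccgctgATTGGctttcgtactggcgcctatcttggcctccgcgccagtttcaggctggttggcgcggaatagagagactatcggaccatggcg
The Ccne1 run held none of the E2F words and no CCAAT box, with 4 GC boxes and a GC content of 76%. The Orc2 run held 1 CCAAT box, and its summit lay inside the run in 2 libraries. The Pola1 run held 1 E2F word, at position -138, and 1 CCAAT box.

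Mcm4 had 83.4 and 72.1 before treatment, 86.2 and 69.1 after 2 h, 23.0 and 78.8 after 6 h, 72.5 and 80.9 after 12 h and 90.8 and 89.2 after 24 h. Only its 24 h pair lay wholly on one side of both 0 h values, above them, and the 6 h mean rests on a single low library. Gins4, given above, differed by -9.43 points at 12 h (SE 4.51, limma adjusted p = 1.0). Cdc7, the kinase that starts origin firing, had 46.6 and 49.6 before treatment, 43.3 and 43.2 after 2 h, 38.6 and 30.7 after 6 h, 49.6 and 47.5 after 12 h and 3.78 and 15.7 after 24 h. The 8 libraries up to 12 h lay between 30.7 and 49.6 and both 24 h libraries below them, a difference of -38.40 points (SE 18.8, limma adjusted p = 0.9998).

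**Figure D4:**
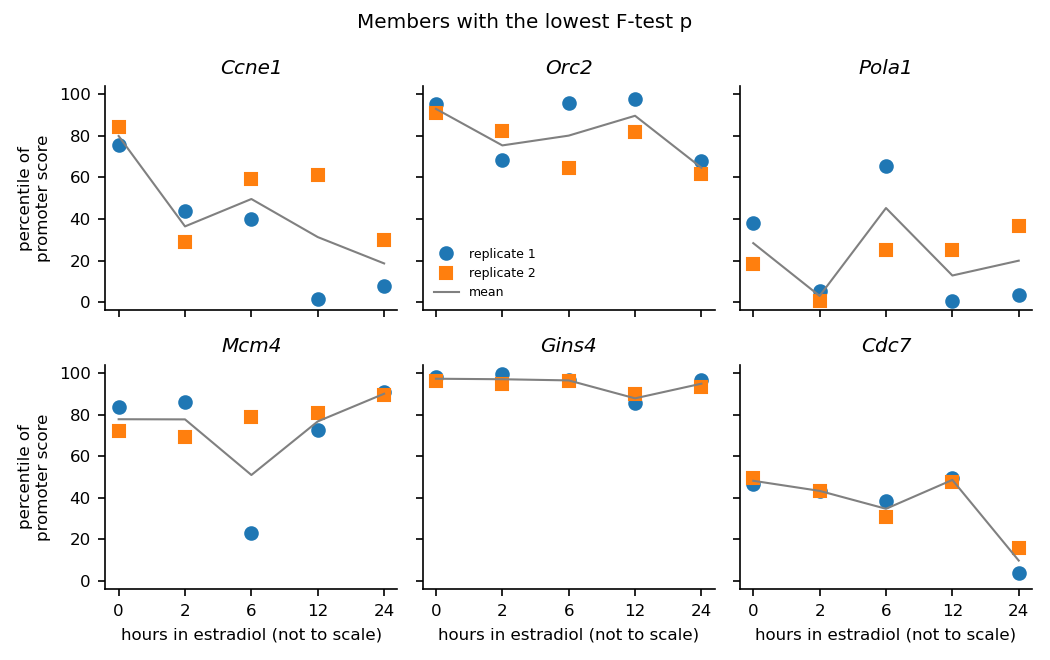
Percentile of the promoter score (y axis) against hours in estradiol (x axis, time points evenly spaced) for the 6 members with the lowest F-test p, with replicate 1 as circles, replicate 2 as squares and a line through the means. Ccne1 goes from 75.7 and 84.1 at 0 h to 7.5 and 29.7 after 24 h, whereas the Cdc7 points stay between 30.7 and 49.6 until 12 h and reach 3.78 and 15.7 after 24 h.

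A further 56 genes of replication, nucleotide supply, chromatin assembly at forks and E2F control were examined beside the members. Of these, 41 (73.2%) had a promoter peak in all 10 libraries, 15 in some and 0 in none. None of the 41 had an adjusted p under 0.05 in limma, and at 24 h 26 were higher and 15 lower than at 0 h, with a median difference of 4.16 points, opposite in sign to the members. Promoter peaks were lost at Atad5, whose product unloads PCNA, at all 4 times, at Mtbp at 2, 12 and 24 h and at Fen1, the flap endonuclease of lagging-strand synthesis, at 2 h, and 1 was gained at Tk1, thymidine kinase, at 12 h. These were losses of 3 of the 55 listed after 2 h, 1 of 56 after 6 h, 2 of 54 after 12 h and 2 of 53 after 24 h, beside 0.833%, 0.103%, 0.724% and 1.31% of all promoters, and the gain was 1 of 54, beside 1.77%. No test was made of these counts.

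Distal open regions near the members were mostly seen in part of the libraries. Summit windows of 501 bp from all lists merged into 28981 regions, of which 108 distal ones lay within 50 kb of a member, among 16196 within 50 kb of any protein-coding gene. Of the 108, 4 (3.70%) were in all 10 libraries and 39 (36.1%) in 1, beside 6.50% and 38.7% of those near any gene. By position 64 were intronic, 39 intergenic and 5 exonic. A member had a median of 2 such regions, as did the genes with a promoter open throughout, beside 1 over all protein-coding genes. Cdc6 had 10 and Prim2 had 8, and Mcm3, Mcm4, Orc2, Orc3 and Rfc5 had none.

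Over the time course 22 of the 108 regions (20.4%), near 16 members, were gained or lost at some time. The rule was the same, both libraries against both. The share changed at any time was not counted over all distal regions, so only the shares at each time can be compared. Gained and lost regions numbered 5 and 2 of the 60 listed after 2 h, 5 and 2 of 83 after 6 h, 9 and 5 of 74 after 12 h and 2 and 3 of 64 after 24 h. Over all distal regions near protein-coding genes the shares gained and lost were 5.15% and 1.96% after 2 h, 6.58% and 1.35% after 6 h, 4.74% and 3.72% after 12 h and 3.46% and 7.21% after 24 h. Neighbouring regions were counted apart. Near Cdk2, one 41789 bp downstream of the start was gained at 6 and 12 h, and one at 41005 bp was lost at 6, 12 and 24 h. With every list reduced to the size of the smallest, 2 regions were gained and 2 lost at 12 h. Without 6 h replicate 1 the 6 h gains were 36 and without 12 h replicate 2 the 12 h gains were 28, the call being looser by construction when 1 later library is left.

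Within Prim2, an intronic region 80211 bp downstream of the nearest annotated Prim2 start was lost at 12 and 24 h. Its scores were 8.40 and 5.04 at 0 h, 6.91 and 10.8 after 2 h and 3.66 and 7.96 after 6 h, with no peak in any of the 4 libraries at 12 and 24 h. The 6 early libraries all had it and the 4 late ones did not. The opposite order was found in an intron of Ninl, 64187 bp downstream of the nearest annotated Gins1 start, where there was no peak in the 4 libraries at 0 and 2 h, and the scores were 5.08 and 6.72 after 6 h, 6.63 and 4.35 after 12 h and 7.71 and 5.84 after 24 h. Neither region has been tied to the member by these data, and Ninl is the nearer gene for the second. Both were picked for their order in time, and how often such an order occurs among all distal regions was not counted.

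The 300 bases around the strongest summit of each are printed on the plus strand because these are the regions with the clearest order in time, with GATA words in capitals (AGATAA or the variant TGATAA, on either strand), for the Prim2 intron (chr1:33541746-33542045) and the Ninl intron near Gins1 (chr2:150976918-150977217).
Prim2 intron: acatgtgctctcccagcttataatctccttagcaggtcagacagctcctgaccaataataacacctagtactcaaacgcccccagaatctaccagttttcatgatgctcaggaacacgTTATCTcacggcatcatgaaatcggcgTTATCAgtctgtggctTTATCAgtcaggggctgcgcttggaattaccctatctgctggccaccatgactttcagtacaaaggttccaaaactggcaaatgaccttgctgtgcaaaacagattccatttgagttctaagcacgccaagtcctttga
Ninl intron: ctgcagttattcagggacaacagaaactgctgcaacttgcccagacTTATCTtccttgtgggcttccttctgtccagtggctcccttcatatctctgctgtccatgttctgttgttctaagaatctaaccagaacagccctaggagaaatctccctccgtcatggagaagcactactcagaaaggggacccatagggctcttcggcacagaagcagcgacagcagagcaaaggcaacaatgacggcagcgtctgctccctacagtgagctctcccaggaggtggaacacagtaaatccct
The Prim2 run held 3 GATA words within a short stretch and the Ninl run 1. At least 1 such word stood in 55 of the 108 regions (50.9%) and in 46.5% of those near any gene, over 300 bases. How many regions held 3 was not counted.

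Other named regions had shorter spells, and distances are to the nearest annotated start of the member. A region 47624 bp downstream of the Gmnn start, in an intron of Ripor2, was gained at 2 h, with scores of 5.64 and 5.51, and was seen again in 6 h replicate 2 (8.48) and 24 h replicate 2 (9.69). At 12 h gains were found 3033 bp from the Cdc6 start, upstream in an exon of Wipf2 (4.78 and 8.17), 10756 bp upstream of Rrm2 (6.07 and 6.14) and 6762 bp upstream of Gins2 (5.05 and 3.71), and each of these also had a peak in 6 h replicate 2, the longest list. The Rrm2 region had further peaks in 2 h replicate 2 (7.97) and 24 h replicate 1 (3.15). An intronic region of Rara, 51954 bp from the nearest Cdc6 start, a different start from that above, was gained at 6 h (4.94 and 6.71). One in Pcyt1b, at -32887 bp from the Pola1 start, was gained at 2 h (5.40 and 4.86), with no peak in any other library. A separate region beside it, at -32300 bp, had a peak in 0 h replicate 1 only (2.30). The Pcyt1b gain therefore holds only with these counted as separate regions. The Rara region also had a peak in 2 h replicate 1 (4.41). Chosen after its values were seen, a second region of Prim2, 1915 bp downstream of a Prim2 start, was lost at 6, 12 and 24 h (2.65 and 7.83 at 0 h).

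**Figure D5:**
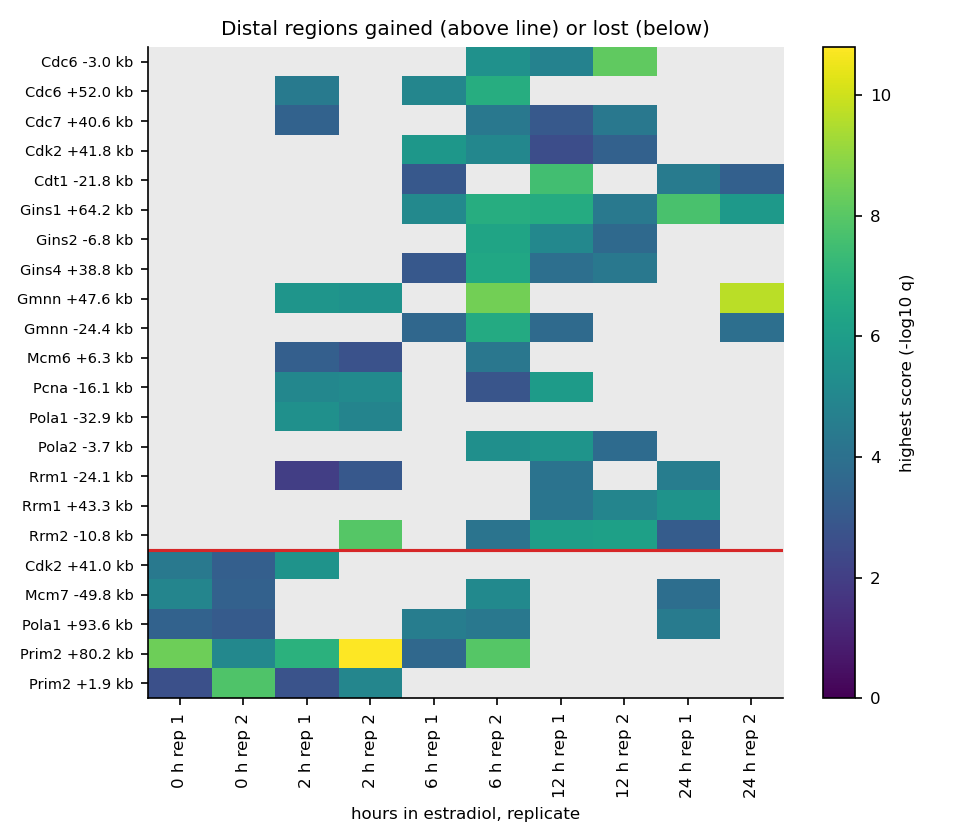
Highest peak score (colour, −log10 q) in each library (columns) of the 22 distal regions near members that were gained (above the red line) or lost (below it) at some time, with light grey where no peak was called and the distance to the nearest start of the member in the row name (positive: downstream). The Gins1 row is filled in the 6 libraries from 6 h on, and the upper Prim2 row in the 6 libraries up to 6 h.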

How the data were processed

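ATAC-seq peak lists of 10 G1E-ER4 libraries were used, grouped by the time and replicate in the sample titles. Per the methods, the authors aligned reads to mm10 with Bowtie2, whereas the submitters' processing notes name Bowtie 1.0.0, Picard and MACS2, and a shift of reads for the Tn5 cut is not given in the sources used here. Each deposited list was called in 1 library and holds 1-bp summits and a score, the −log10 of the MACS q-value (lowest score 1.30), which is not scaled between libraries. Depth is unknown and its effect on the calls cannot be given. Mitochondrial peaks were left out.

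Starts were those of the protein-coding genes of GENCODE M21. Promoter scores (the highest within 1 kb) were ranked among the 5905 genes open in all libraries and tested with limma 3.58.1 (R 4.3.3, trend, all 10 libraries, no covariates, Benjamini-Hochberg over all genes, threshold 0.05). The fit was also run on simulated data with the same spread for every gene and no replicate effect, unlike these data. That run does not show how large a shift could be found here. Distal regions were merged windows of 250 bp each side of a summit. Calls of gain and loss have no test. Values per library are given for members gained or lost, the 6 with the lowest F-test p, the 3 highest and 3 lowest mean percentiles and those with a peak in part of the libraries, and for the 8 changed distal regions of highest mean score. The members and lists were chosen with earlier results of these data known. The replicate numbers come from the titles. Deviations of same-numbered libraries correlated across genes in 10 of 10 pairs of time points (0.181 to 0.350). The main fit, which gave the SEs, p-values and F-test order, left this pairing out. Only the replicate block and the differences within a replicate used it. Alternatives were other distances, windows, scales and filters, equal list sizes, a replicate block and leaving out each library.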

Additional observations from a re-analysis of the deposited data

How the results depend on the processing

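Promoters of 35 members were listed in every library at distances of 500 bp and 2 kb, from protein-coding transcripts alone and at scores of at least 2. With every list reduced to the size of the smallest this was 25 members, and 4513 in place of 5905 genes, and without each library in turn, an alternative added after the data were seen, 35 to 37 members. With a promoter distance of 500 bp, 3 members (Gins3, Pola2 and Prim2) were lost after 12 h, with 2 kb 1 (Gins3), and with equal list sizes 1 after 2 h (Pola1) and 1 after 12 h (Pola2). The limma fit with the replicate block, in which replicate numbers were paired, called 0 promoters at each time and changed no other call, as did every other scale, filter and set of libraries, apart from 1 promoter of no member called at 2 h without 2 h replicate 2 and 1 at 12 h without 12 h replicate 2. Of the 18 alternatives for the differences at 24 h, 8 left them as they were by construction. Ccne1, Orc2, Mcm4, Gins4, Cdc7 and Mcm3 kept the sign under all 18, Tyms and Gins2 under 17, Pola1 and Rfc5 under 16 and Prim1 under 13.

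Distal counts followed the settings. Within 25 kb there were 63 regions, gained and lost as 3 and 1 after 2 h, 1 and 1 after 6 h, 4 and 3 after 12 h and 1 gained after 24 h. Within 100 kb there were 186, with 9 gained at 2 h and 5 gained and 5 lost at 24 h. Equal lists left 68 regions, with 3 and 1 after 2 h, 0 and 1 after 6 h and 2 and 2 after 12 h, and windows of 500 bp gave 1 lost after 6 h.

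Leaving out a library loosens a call of both against both. Promoters of all genes gained or lost, 225, 252, 238 and 227 at 2, 6, 12 and 24 h, then ranged from 595 to 897, 577 to 970, 575 to 863 and 594 to 823. Members gained ranged from 0 to 3 at 2, 6 and 24 h and 0 to 2 after 12 h, the highest without 0 h replicate 1, and members lost from 0 to 2 after 6 h (without 6 h replicate 2) and 0 to 1 after 24 h. The limma calls over all genes ranged from 0 to 1 at 2 h and 12 h. Distal regions gained ranged from 7 to 14, 8 to 36, 12 to 28 and 3 to 20 at the 4 times, and lost from 2 to 11, 2 to 10, 5 to 16 and 3 to 17, the lost ones highest without 0 h replicate 2. Depth is unknown, and why a peak is missing in a list was not tested.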
